A study of Rattus norvegicus with 3 samples.

Results

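Lx peaks are the regions bound by HILS1 that were annotated to copies of Lx, an old lineage of LINE-1 retrotransposons in the rat genome. They were taken from 1 list of HILS1 ChIP sequencing peaks by the repeat that the authors' annotation gave to each peak: every peak annotated to a LINE-1 repeat whose subclass name begins with Lx. This gave 717 of the 32731 peaks in the list, which is 2.19% of all peaks (95% Wilson interval 2.04% to 2.35%) and 2.82% of the 25398 LINE-1 peaks. The measured values did not enter the choice. Each peak has at most 1 repeat label, and how much of its length lies in that repeat was not measured here. Below, a peak in a repeat or in no repeat is one with that label.

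HILS1 was immunoprecipitated from nuclei reported as those of elongating and condensing spermatids of rats aged 50 to 60 days. The study's ChIP methods describe nuclei from the testis of such rats, so whether other testis cells were present could not be checked. There were 2 replicates, against 1 input library without immunoprecipitation. These are the samples given here, whereas the series' design text speaks of more than 1 run, each with a control of its own. This difference could not be settled. The list holds the regions that both ChIP replicates had in common, with 1 fold enrichment, 1 score and 1 false discovery rate for each. It has no value per replicate, so no difference below could be set against the spread between replicates, and no test was made. Because the list holds binding sites and no expression levels, marker genes could not be used to check the labelled cell type.

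LINE-1 elements copy themselves through an RNA that their own proteins reverse transcribe into new places in the genome, and most copies are broken off at the 5′ end or decayed. Lx elements spread in an ancestor of the murine rodents, so the copies are old and diverged and are shared between rat and mouse, whereas L1_Rn is a younger, rat lineage. HILS1 is a linker histone made in the spermatid, in the stage in which most histones give way to transition proteins and then to protamines.

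The Lx peaks covered 675 kb, or 2.05% of the length of all peaks, and came from 662 peaks as the caller had made them. In the list a called peak can be broken into several segments, each a row with its own position and repeat, and the values of a called peak are repeated in each of its segments. Intervals of shares (Wilson) and of medians (order statistics) are at 95%. Those of a difference run between opposite ends of 2 median intervals, so their level is not known. All treat peaks as independent although segments and neighbours are not, and cover counting error only.

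The list held 20 Lx subclasses, and 3 of them made up 315 Lx peaks, or 43.9%. These were Lx itself with 151 peaks, Lx4B with 83 and Lx2B with 81. Lx7 followed with 60 peaks, Lx8 with 55, Lx2 with 46, Lx4A with 40, Lx9 with 36 and Lx5 with 35. Lx3A and Lx5c had 24 each, Lx2B2 had 17, Lx6 had 12, Lx5b had 11 and Lx8b had 10. The 5 remaining subclasses (Lx10, Lx3C, Lx2A1, Lx3B and Lx2A) had 32 peaks between them, with 9, 9, 6, 6 and 2. How many copies of each subclass the genome holds was not used here, so these are counts of bound regions and not rates per copy.

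Lx peaks were enriched less than the other LINE-1 peaks. Fold enrichment is the height of the called peak in the ChIP over the caller's background, as the authors deposited it on a linear scale. All values were whole multiples of 0.926 (within 0.011), as if the background were the same for every region. On that reading the fold is not corrected for local input. The median fold was 17.6 in the 717 Lx peaks (interval 16.7 to 18.5, quartiles 13.0 and 25.0), against 26.9 in the 24681 other LINE-1 peaks (quartiles 21.3 and 33.3). On the log2 scale the medians were 4.14 for Lx and 4.75 for other LINE-1, a difference of -0.61 (interval of the difference -0.69 to -0.54). The 7333 peaks outside LINE-1 had the same median as Lx, 17.6. The quartile ranges of Lx and other LINE-1 overlapped, and single Lx peaks reached 92.6.

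Some smaller LINE-1 groups in the list, picked by name, had similar values, and their age was not measured here. L1_Rat3 with L1_Rat4 (605 peaks) had a median fold of 16.7, and the L1_Mur subclasses with L1VL (223 peaks) had 15.7. The groups that make up most LINE-1 peaks were higher, at 30.6 in L1_Rn (12192 peaks), 24.1 in L1_Rat1 (7686 peaks) and 26.9 in RNHAL1 (2597 peaks). A fold of at least 16 was reached by 405 Lx peaks, or 56.5% (52.8% to 60.1%), against 89.5% of the other LINE-1 peaks and 57.3% of the peaks outside LINE-1. Among all 32731 peaks the share was 81.6%. A false discovery rate of at most 10% was met by 483 Lx peaks, or 67.4%, against 90.3% of the other LINE-1 peaks, where the share among all peaks was 84.7%.

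The caller's score, which rises as the p-value of the called peak falls, had a median of 290 in Lx peaks, against 794 in other LINE-1 peaks. It was 1311 in L1_Rn, 530 in L1_Rat1, 291 in L1_Rat3 with L1_Rat4 and 278 in L1_Mur with L1VL. The commonest score in the list, 3100, was carried by 22 Lx peaks (3.07%), against 10.1% of the other LINE-1 peaks. That share was 17.4% in L1_Rn, 2.02% in L1_Rat1, 1.32% in L1_Rat3 with L1_Rat4 and 1.79% in L1_Mur with L1VL. Lengths lay closer together. The median was 727 bp in Lx peaks (692 to 761 bp), against 792 bp in other LINE-1 peaks (786 to 799 bp), and 902 bp in L1_Rn. L1_Rat1 had 715 bp, L1_Rat3 with L1_Rat4 had 705 bp and L1_Mur with L1VL had 698 bp. Among the peaks with a fold of at least 16 the order of Lx and other LINE-1 turned round. The Lx median was 895 bp there, and log10 length was higher by 0.0281 in Lx than in other LINE-1. In the whole list the same difference was -0.0372.

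**Figure D1:**
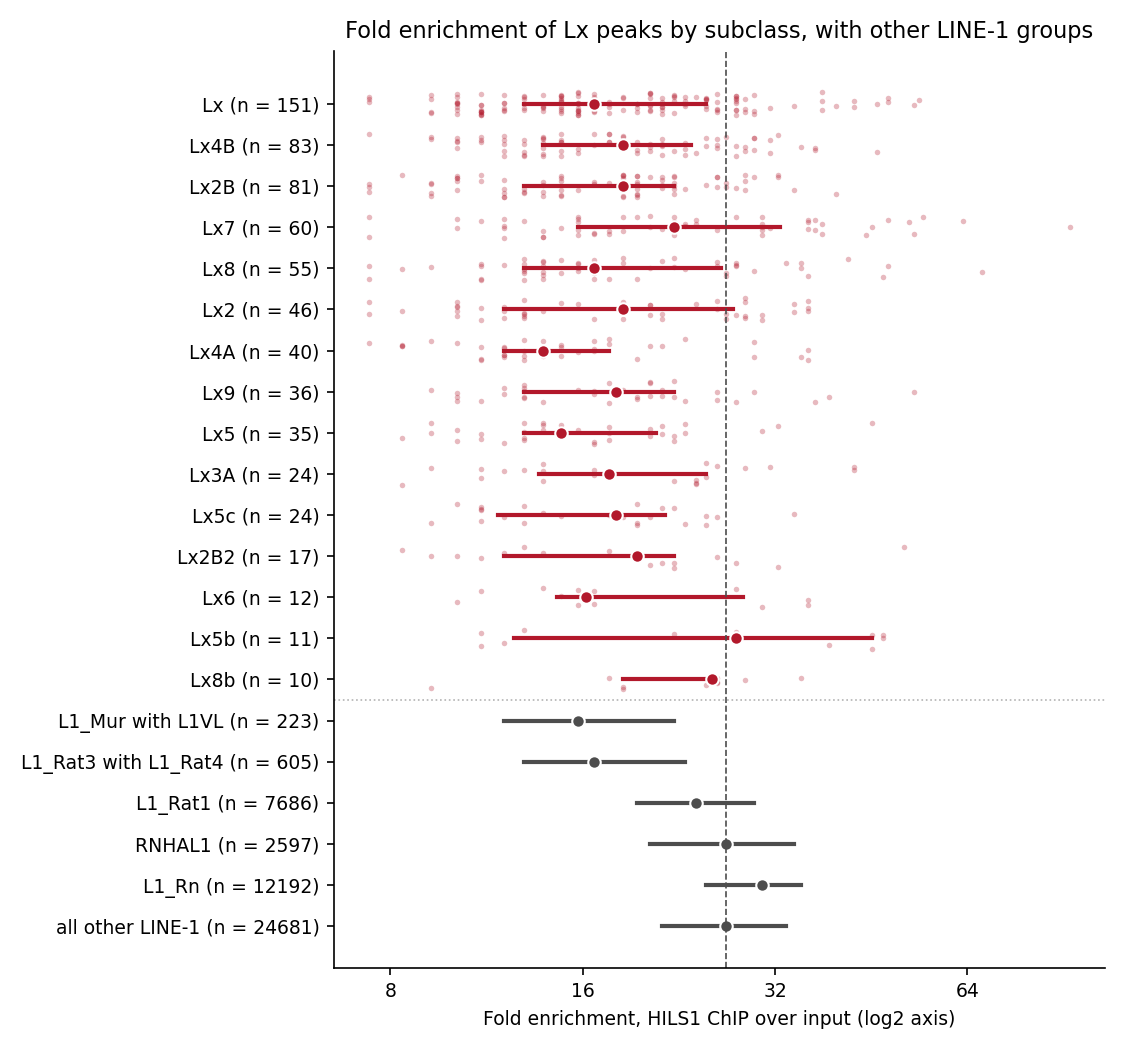
Fold enrichment of HILS1 ChIP over the caller's background (horizontal, log2 axis, labelled as over input) for each Lx peak in the 15 subclasses with at least 10 peaks (small red points), with the median (large point) and quartiles (line). Below the dotted line are the medians and quartiles of other LINE-1 groups in grey, and the dashed line is the median of all other LINE-1 peaks, 26.9: 14 of the 15 Lx subclasses have medians to its left.

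The lower fold was shared by most subclasses. Of the 15 with at least 10 peaks, 14 had a median below the 26.9 of other LINE-1, and the medians ran between 13.9 in Lx4A and 27.8 in Lx5b. The 3 largest lay close together, with 16.7 in Lx (15.7 to 20.4), 18.5 in Lx4B (15.7 to 19.4) and 18.5 in Lx2B (14.8 to 19.4). Their intervals overlapped, so the list does not order these 3.

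Lx itself ran between a fold of 7.41 and one of 53.7, and its highest peak lay on chromosome 7 near Stx19, which encodes a syntaxin of membrane fusion. Its lowest, at chr14:21945368-21945468 (rn5) near the milk casein gene Csn1s1, was also the shortest Lx peak, at 100 bp. Lx4B reached 46.3 in a peak on chromosome 16 near Lzts1. Lx2B reached 39.8 in an intron of Spetex2h, a member of a rat gene family expressed in spermatids. Both subclasses had their lowest peaks at a fold of 7.41 on chromosome 15, near Calm2 for Lx4B and Cdkn3 for Lx2B. Each of the 3 large subclasses thus held peaks at the lowest fold of the list and others above the median of other LINE-1.

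Lx7 had the highest median of the subclasses with more than 11 peaks, 22.2 (17.6 to 25.9), and 41 of its 60 peaks, or 68.3%, had a fold of at least 16. It also supplied 5 of the 10 Lx peaks with the highest fold. The highest was 1212 bp long at chr6:39253346-39254558, 17.9 kb from the start of the ribosomal RNA gene Rn5-8s, with a fold of 92.6. Others lay on chromosome 7 near Pros1, the gene of the anticoagulant protein S, with folds of 63.0 and 52.8, on the same chromosome near the drug-metabolising cytochrome gene Cyp2b1 with 54.6, and on chromosome 16 near Lzts1 with 51.9. Its lowest peak, at 7.41, was near Snurf on chromosome 1. Lx7 peaks were also long, with a median of 873 bp, against 693 bp in the subclass Lx.

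At the low end, Lx4A had a median of 13.9 (13.0 to 15.7) over 40 peaks and Lx5 had 14.8 (13.9 to 17.6) over 35 peaks. Only 14 Lx4A peaks, or 35.0%, reached a fold of 16, and its upper quartile of 17.6 was the lowest of the 15 subclasses. Both nevertheless held strong single peaks. Lx4A reached 36.1 in an intron of the vomeronasal receptor gene Vom2r37, and Lx5 reached 45.4 near Vom2r9.

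Lx8 had a median of 16.7 and held the second highest Lx peak of all, with a fold of 67.6 at chr7:99824495-99825190 near Cyp2b1. Lx2 had 18.5 and Lx9 18.1, and Lx9 reached 52.8 on chromosome 8 near Vkorc1l1. Lx3A had a median of 17.6 and its highest peaks, at 42.6, were 2 segments of a called peak in an intron of Csrnp3. Lx5c had 18.1, Lx2B2 had 19.4 and Lx6 had 16.2. The highest peaks of Lx5c and Lx2B2 were 34.3 for Lx5c near Bcl2a1 and 50.9 for Lx2B2 near MGC116197. None of these medians had an interval that reached the 26.9 of other LINE-1 except that of Lx6, with an upper end of 27.8 over 12 peaks.

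The small subclasses Lx5b and Lx8b stood higher, with wide intervals. Lx5b had a median of 27.8 (12.0 to 45.4) over 11 peaks, of which 2 segments with a fold of 47.2 lay on the X chromosome near the olfactory receptor gene Olr1767. Lx8b had 25.5 (18.5 to 25.9) over 10 peaks from 8 called peaks, and 9 of them reached a fold of 16. Among subclasses under 10 peaks, Lx2A1 had a median of 30.1 over 6 peaks and Lx10 had 13.9 over 9. At these numbers a subclass median can be set by the segments of a few called peaks.

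Length differed between subclasses too. The longest medians among the 15 were 1042 bp in Lx8b, 964 bp in Lx5b, 944 bp in Lx6, 873 bp in Lx7 and 853 bp in Lx2B2, and the shortest were 634 bp in Lx8, 645 bp in Lx9 and 653 bp in Lx2. Across all Lx peaks the quartiles were 576 and 1042 bp, 54 peaks were over 2000 bp and 26 were under 300 bp. The interval of the Lx7 median (801 to 1050 bp) lay above that of all Lx peaks (692 to 761 bp).

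The spread over the genome also differed between subclasses. Lx lay on all 21 chromosomes and in 85 windows of 1 Mb, with at most 16 peaks in any of them. The 83 Lx4B peaks lay in 40 windows on 15 chromosomes and the 81 Lx2B peaks in 46 windows on 14. Lx8 was the most scattered of the larger subclasses: its 55 peaks came from 55 called peaks in 44 windows, and no window held more than 2. Lx9 had likewise 36 peaks from 36 called peaks, and 12 of the Lx8 and 9 of the Lx9 peaks shared a called peak with a segment outside their own subclass. In called peaks of several listed segments were also 33 of the 83 Lx4B peaks and 26 of the 60 Lx7 peaks.

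The neighbourhood of the Lx peaks was different from that of most LINE-1 peaks. The genome was cut into windows of 1 Mb, and a window counted as dense where it held at least 50 peaks of any kind, by their midpoints. Dense windows were 67 of the 2566 windows with a peak, and they held 6328 peaks, or 19.3% of the list. They held 426 Lx peaks, which is 59.4% of the Lx peaks (55.8% to 62.9%), against 5.83% of the other LINE-1 peaks (5.54% to 6.13%). Of the peaks outside LINE-1, 4463 or 60.9% were in dense windows. An Lx peak lay in 61 of the 67 dense windows and in 151 of the other 2499. When windows were counted without the Lx peaks themselves, 55.8% of the Lx peaks were still in dense ones.

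Some smaller LINE-1 groups shared this placement. The share in dense windows was 58.2% for L1_Rat3 with L1_Rat4 and 60.5% for L1_Mur with L1VL, against 3.22% for L1_Rn. Within Lx it was 74.7% for Lx4B, 70.0% for Lx4A, 66.7% for Lx7, 61.7% for Lx2B and 54.3% for Lx. It exceeded 50% in 11 of the 15 subclasses with at least 10 peaks. Lx6, with 2 of 12 peaks, and Lx5b, with 4 of 11, were the exceptions below that level, and Lx3A and Lx8b stood at 50.0%.

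Lx made up a larger part of the LINE-1 peaks in dense windows than in sparse ones. In windows of 1 to 4 peaks it was 0.371% of the LINE-1 peaks, in those of 5 to 9 it was 0.779%, and in those of 10 to 19 it was 0.631%. The share was 2.76% at 20 to 49 peaks, 21.2% at 50 to 99 and 25.2% (22.3% to 28.3%) at 100 to 246. The step fell between the windows of 20 to 49 peaks and those of 50 to 99, while the 3 sparsest kinds had overlapping intervals. Summed, Lx was 22.8% of the LINE-1 peaks in dense windows and 1.24% of those elsewhere.

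**Figure D2:**
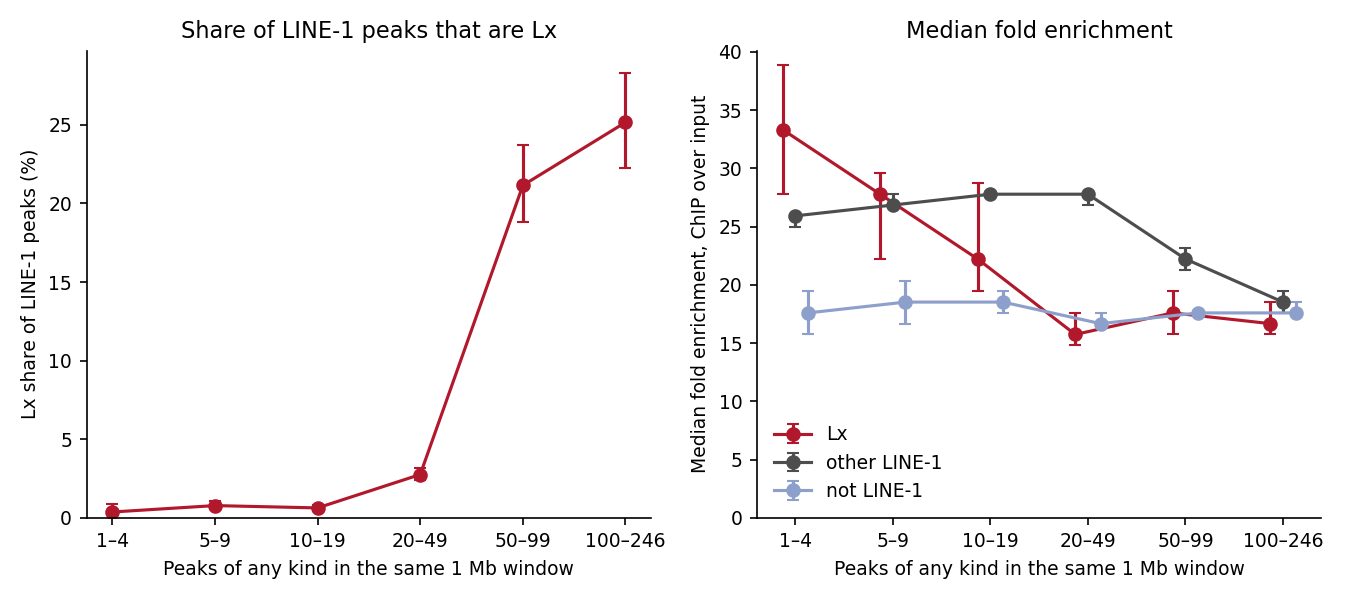
Left, the share of LINE-1 peaks that are Lx (percent, with 95% Wilson intervals), and right, the median fold enrichment of Lx, other LINE-1 and non-LINE-1 peaks (with 95% order-statistic intervals), both against the number of peaks of any kind in the same 1 Mb window. The Lx share reaches 25.2% in the densest windows, and the Lx median fold lies above that of other LINE-1 in windows of 1 to 4 peaks (5 Lx peaks, 33.3 against 25.9), close to it in those of 5 to 9, and near that of non-LINE-1 peaks from 20 peaks upward.

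Fold enrichment of Lx also went with the kind of window. In the 39 Lx peaks in windows of under 10 peaks the median was 27.8 (25.0 to 30.6), against 26.9 in 5674 other LINE-1 peaks in such windows. In the 252 Lx peaks in windows of 10 to 49 peaks it was 17.6 (15.7 to 18.5), against 27.8 in 17568 other LINE-1 peaks. In dense windows it was 17.6 (16.7 to 18.5) in 426 Lx peaks, against 20.4 (19.4 to 21.3) in 1439 other LINE-1 peaks. The latter mixed unlike groups, with medians in dense windows of 28.7 in L1_Rn, 23.2 in L1_Rat1 and 23.2 in RNHAL1. L1_Rat3 with L1_Rat4 had 16.7 there (352 peaks) and L1_Mur with L1VL had 15.7 (135 peaks). Outside dense windows L1_Rn had 30.6, L1_Rat1 24.1 and RNHAL1 26.9. Of the windows of 10 to 49 peaks, those of 10 to 19 had a median of 22.2 (19.4 to 28.7) in Lx, against 27.8 in other LINE-1, and those of 20 to 49 had 15.7 (14.8 to 17.6) in Lx, against 27.8 in other LINE-1. The Lx median was thus the lower one from 10 peaks upward, with overlapping intervals at 10 to 19 peaks and at 100 to 246. At 100 to 246 it was 16.7 (15.7 to 18.5) in Lx, against 18.5 (17.6 to 19.4) in other LINE-1. Over all dense windows the difference was -0.21 on the log2 scale (-0.35 to -0.07). No such difference was detectable in windows of under 10 peaks at this number. What the number of neighbouring peaks contributes to the fold was not tested.

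The 39 Lx peaks in sparse windows came from 32 called peaks on 13 chromosomes, with folds between 11.1 and 39.8. Counting each called peak once gave a median of 26.4. The subclass Lx had 12 of them and Lx7 had 6, of which 5 were the segments of a single called peak at chr7:41573426-41578021, near the gene of the ERK phosphatase Dusp6. All 5 segments carried a fold of 30.6 and lay between 481 and 1062 bp in length, separated by short gaps. It was the called peak with the most Lx segments. The highest fold among the sparse ones, 39.8, was an Lx3C peak of 951 bp on chromosome 1, 326 kb from Anxa1, which encodes annexin A1, and its nearest neighbour in the list was 120 kb away. An Lx5b peak of 2343 bp on chromosome 4, near the gustducin gene Gnat3, had a fold of 38.9 with no other peak within 393 kb.

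Lx peaks were gathered in few places. They lay in 212 windows, of which 93 held a single one. The 45 windows with at least 5 held 422 of them, and the 14 windows with at least 10 held 221, or 30.8%.

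The fullest was on chromosome 1 between 186 and 187 Mb, near the gene of the Ras-like GTPase Rras2, with 26 Lx peaks among 213. They belonged to 8 subclasses, led by Lx4B with 9, and the other peaks included 38 in other LINE-1 and 61 in RatSatRep repeats. Median fold in this window was 18.1 in the Lx peaks, with a range of 11.1 to 29.6, and 17.6 in the rest. The next was on chromosome 7 between 21 and 22 Mb, near the vomeronasal receptor gene Vom2r57, with 23 Lx peaks among 180. Lx4B again led, with 10, and Lx3A had 4. Here the median fold was 23.2 in the Lx peaks and 16.7 in the rest. In both windows the nearest annotated gene start was far from the peaks, at least 128 kb for Rras2 and 1126 kb for Vom2r57.

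The windows that followed had another make-up. The first 1 Mb of chromosome 2, near the antigen-trimming aminopeptidase gene Erap1, was the densest of the list with 246 peaks, and 16 of its 19 Lx peaks were of the subclass Lx. On chromosome 9 between 105 and 106 Mb, near Nudt12, 13 of 19 were of the subclass Lx and lay within 255 kb together with the rest. This window held the longest Lx peak, an Lx2B2 of 3982 bp at chr9:105975720-105979702 with a fold of 22.2. Median fold was 15.7 in the Lx peaks of the chromosome 2 window, against 16.7 in its other peaks, and 17.6 in those of the chromosome 9 window, against 16.7 in its other peaks.

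Among the remaining 10 full windows, that near the imprinted gene Snurf on chromosome 1 had the largest part of its peaks in Lx, 18 of 64, with a median fold of 12.5, against 16.7 in its other peaks. At 56 to 57 Mb of the same chromosome, nearest to Vom2r9 and the sperm motility kinase gene Smok2a, 9 of 18 Lx peaks were Lx5, and the list held 35 Lx5 peaks in all. A window on chromosome 15 near Calm2 held 8 Lx4B peaks among its 12. Different subclasses thus led different windows.

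**Figure D3:**
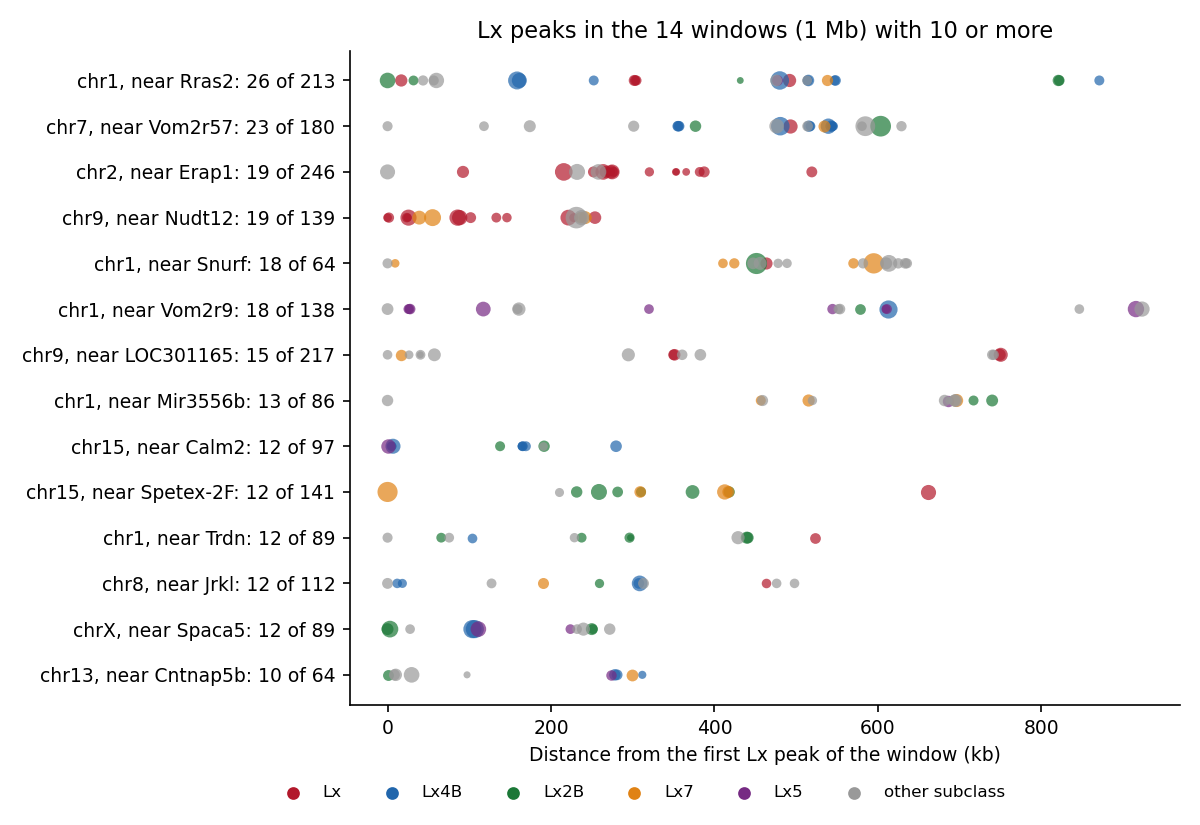
Lx peaks in the 14 windows of 1 Mb with at least 10 of them, each row a window labelled by its chromosome, the gene nearest to most of its Lx peaks, and the number of Lx peaks of all peaks. Points are Lx peaks at their distance in kb from the first Lx peak of the window, coloured by subclass and larger for longer peaks: the rows near Erap1 and Nudt12 are mostly of the subclass Lx, and Lx4B (blue) recurs in the rows near Rras2, Vom2r57 and Calm2.

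At short range, 586 Lx peaks, or 81.7% (78.7% to 84.4%), had another peak of any kind within 6000 bp, edge to edge, against 71.3% of the other LINE-1 peaks. The share was 80.3% in L1_Rat3 with L1_Rat4, 86.1% in L1_Mur with L1VL and 82.6% outside LINE-1, so this too was not particular to Lx. The median gap was 686 bp for Lx and 628 bp for other LINE-1. The upper quartile was 3018 bp for Lx and 13622 bp for other LINE-1, so the difference was in the isolated peaks rather than in the closest pairs. Within 1000 bp the shares were 57.2% for Lx and 57.8% for other LINE-1. In dense windows 93.4% of the Lx peaks had a neighbour within 6000 bp, and elsewhere 64.6%, against 87.9% and 70.3% of the other LINE-1 peaks.

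The neighbours themselves were of other kinds than those of most LINE-1 peaks. The nearest peak was annotated to no repeat for 221 Lx peaks, or 30.8%, against 1.94% of the other LINE-1 peaks. For Lx the number was 5 of 39 in windows of under 10 peaks and 66 of 252 in those of 10 to 49. In dense windows it was 150 of 426. Other LINE-1 peaks lay mostly outside dense windows and were not split in this way, so the surroundings compared are unlike. The nearest peak was of the same Lx subclass for 154 (21.5%) and of another Lx subclass for 56 (7.81%). It was in another LINE-1 for 143 (19.9%) and in an LTR retrotransposon for 85 (11.9%). A LINE-1 of any kind was nearest for 49.2% of the Lx peaks, against 94.7% of the other LINE-1 peaks. For 185 Lx peaks the nearest peak was a segment of the same called peak.

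The 131 Lx peaks with no other peak within 6000 bp had a median fold of 15.7 (14.8 to 19.4), against 17.6 (16.7 to 18.5) for the 586 with one. These intervals overlapped, so the list does not order these medians. Among the other LINE-1 peaks the median folds were 23.2 without and 28.7 with a neighbour. Isolated Lx peaks were also shorter, with a median of 629 bp, against 756 bp for those with a neighbour. Of the 131, 28 lay in dense windows, and the nearest peak was in another LINE-1 for 63.

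Of the 662 called peaks with an Lx segment, 504 had a single segment in the list and 158 had more. Segments were counted among the listed peaks, and some of the 504 are named as later segments of a called peak. The Lx7 peak near Lzts1 with a fold of 51.9 is such a case, so other segments of its called peak are not in the list. Lx peaks belonged to a called peak of several listed segments in 29.7% of cases, against 47.0% of the other LINE-1 peaks. The share was likewise low in L1_Rat3 with L1_Rat4 (26.3%), in L1_Mur with L1VL (27.4%) and outside LINE-1 (25.6%). In 40 called peaks all of several listed segments were Lx, and in 118 at least 1 listed segment lay outside Lx. These 118 had 157 such segments, of which 68 were in no repeat, 38 in LTR elements, 28 in other LINE-1 and 9 in satellites. Only 8 were in L1_Rn, L1_Rat1 or RNHAL1. Since the fold belongs to the called peak, the value of an Lx peak in these 118 was set by the height of the whole called peak, which need not lie in the Lx segment. The same holds for called peaks with segments that are not in the list.

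The same order of repeats came back in 2 of these called peaks. At chr1:186582727-186589114 near Rras2 and at chr7:21823002-21829509 near Vom2r57, each had 4 segments, in the order no repeat, RMER20B (an LTR element), Lx4B and RatSatRep1 (a satellite), with folds of 25.9 and 25.0. These called peaks were seen among those listed for their number of segments, and how many times the order occurs in the genome was not examined.

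Lx peaks were found on chromosomes 1 to 20 and X, unevenly. Chromosome 1 held 151, or 21.1% of them, against 12.5% of all peaks, and chromosome 2 held 104 (14.5%, against 13.0% of all peaks). Chromosomes 9 and 7 followed, with 68 and 63. Chromosomes 11 and 17 had the fewest, 4 each, on chromosome 11 among 1051 peaks and on chromosome 17 among 930. The X chromosome had 45, or 6.28%, against 6.97% of all peaks. As a share of the LINE-1 peaks, Lx was highest on chromosome 12, with 15 of 145 or 10.3% (6.37% to 16.4%), and lowest on chromosome 11, with 0.431% (0.168% to 1.10%). On chromosome 1, 107 of the 151 lay in dense windows, and on chromosome 9, 61 of 68.

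**Figure D4:**
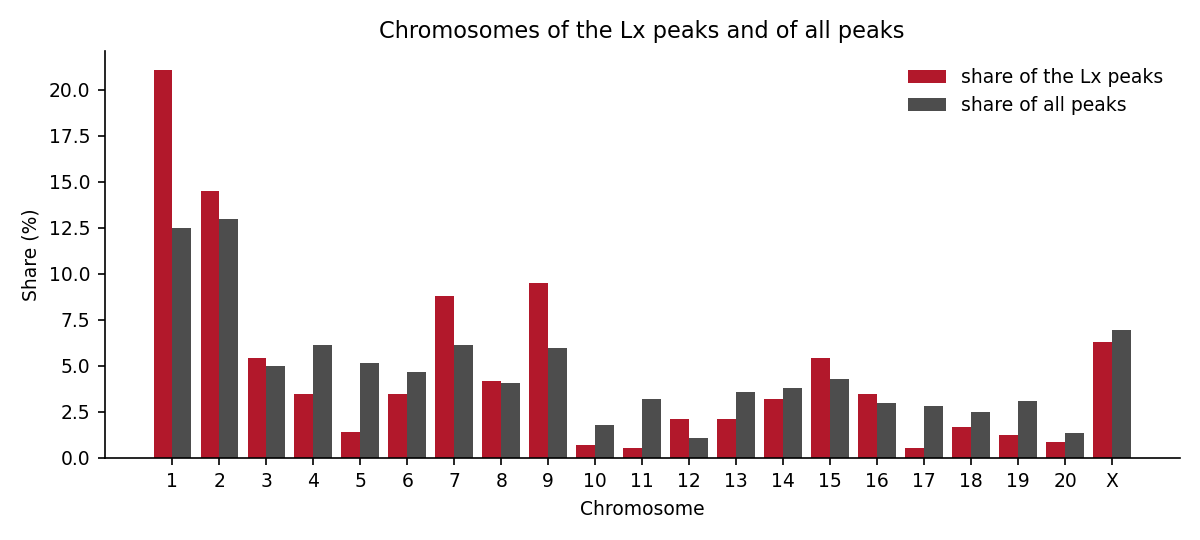
Share of the 717 Lx peaks (red) and of all 32731 peaks (grey) on each chromosome, in percent. Chromosome 1 holds 21.1% of the Lx peaks and 12.5% of all peaks, and chromosomes 11 and 17 hold 4 Lx peaks each.

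Most Lx peaks were far from genes. By the authors' annotation 664 were intergenic and 53 intronic, and none was annotated to an exon, a promoter, a 3′UTR or a transcription termination site. The intronic share was 7.39% (5.70% to 9.54%), against 16% of the other LINE-1 peaks (15.6% to 16.5%). It was also low in L1_Rat3 with L1_Rat4 (7.11%), in L1_Mur with L1VL (9.42%) and outside LINE-1 (7.40%). In dense windows the intronic share was 3.52% for Lx and 6.39% for other LINE-1, and elsewhere 13.1% (9.66% to 17.4%) for Lx and 16.6% for other LINE-1. Outside dense windows these intervals overlapped. The median distance to the nearest start site was 419 kb for Lx, against 174 kb for other LINE-1, and 133 Lx peaks were more than 1 Mb away.

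The 53 intronic Lx peaks lay in 25 genes and had a median fold of 19.4, against 17.6 in the intergenic ones. Adcy2, an adenylyl cyclase that makes cyclic AMP, had 9 of its 48 intronic peaks in Lx, of the subclasses Lx2B, Lx3C, Lx4B and Lx8, with folds between 10.2 and 31.5. It lies on chromosome 1, and 8 of the 9 were outside dense windows. Sult1c2a, a sulfotransferase gene on chromosome 9, had 4 among 71 intronic peaks, with folds between 11.1 and 20.4. The spermatid-expressed Spetex genes on chromosome 15 had 4 in Spetex-2E, between 15.7 and 29.6, and 3 in Spetex2h, between 22.2 and 39.8. All 11 in Sult1c2a and both Spetex genes were in dense windows. These genes have near-identical copies close by, so the gene to which a peak was assigned is uncertain.

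A further 3 genes had 3 each, and none of these peaks was in a dense window. They were Amph, which encodes amphiphysin of synaptic endocytosis, with folds of 7.41 to 25.0, the bone morphogenetic protein gene Bmp5, with 11.1 to 13.9, and RGD1559714, with 11.1 in all 3. In Bmp5, 2 of the 14 intronic peaks were in other LINE-1, and in RGD1559714 none of 6 was. Strong intronic pairs lay in Csrnp3, with 42.6 in 2 Lx3A segments, and in Vom2r37, with 36.1 in 2 Lx4A segments.

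The Lx peak closest to a start site was an Lx4A of 934 bp in an intron of LOC301165 on chromosome 9, 1.31 kb from the start, with a fold of 13.9. The next was an Lx5 peak 2.86 kb from Smok2a, with a fold of 14.8, and 2 more Lx5 segments of 1 called peak lay 4.08 and 5.07 kb from the same start, with a fold of 20.4. An Lx5c peak in Cyp2c7, 3.74 kb from the start of Cyp2c6v1, had a fold of 9.26. In all, 17 Lx peaks were within 10 kb of a start site, and the closest ones were not among the strongest.

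By the nearest gene, 205 genes had an Lx peak, and the 10 with the most took 198 peaks, or 27.6%. Vom2r57 had 33, Rras2 32, Erap1 26, Nudt12 19, Snurf 18, LOC301165 15 and Trdn, which encodes triadin of muscle calcium release, 15. Calm2, a calmodulin gene, had 14, the homeobox gene Shox2 14, and Jrkl 12. Spaca5, named for a protein of the sperm acrosome, also had 12. The peaks stood at 128 kb or more from these starts except those near Erap1, where the closest was 87.0 kb away, those near Calm2, at 119 kb, and those near LOC301165, so the names mostly mark places rather than parts of genes. Of the Shox2 peaks only 2 of 14 were in dense windows, whereas all of those near Vom2r57, Rras2, Erap1, Nudt12 and Snurf were.

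Among gene groups, vomeronasal receptors, the pheromone receptors of the rodent nose, were nearest for 58 Lx peaks in 11 genes, or 8.09% (6.31% to 10.3%), against 3.89% of all peaks. Of these 58, 49 were in dense windows, and 33 were the peaks near Vom2r57. Vom2r9 followed with 11 and Vom2r76 with 4. Their folds ran between 8.33 and 48.2, with a median of 22.7. The share therefore rests for the most part on a single stretch of chromosome 7.

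Olfactory receptor genes were nearest for 19 Lx peaks (2.65%, against 3.88% of all peaks), spread over 12 genes, with Olr1194 on chromosome 8 at 3 Lx2 peaks 10.1 to 12.7 kb from its start. Zinc finger genes were nearest for 10 (1.39%, against 1.09%), 3 of them near Zfp868. Cytochrome P450 genes were also nearest for 10 (1.39%, against 0.617%), with a median fold of 33.3, the highest of these groups. They included the 3 near Cyp2b1, an Lx, an Lx7 and an Lx8 with folds between 48.2 and 67.6, and 2 Lx3B segments with a fold of 33.3 near Cyp4v3 on chromosome 16. The 2 near Cyp2c6v1 were at the other end, with 8.33 and 9.26.

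Long neuronal genes were nearest for 17 Lx peaks (2.37%, against 2.77% of all peaks), and 11 of them were nearest to Cntnap5b. These 11 were intergenic and lay 2013 to 3056 kb from its start. A single Lx peak, an Lx4B with a fold of 32.4, lay inside a gene of this list, in an intron of Nrxn3. Cadherins and protocadherins were nearest for 5 (0.697%, against 2.34%) and neurotransmitter receptor genes for 3 (0.418%, against 1.64%), all 3 near the serotonin receptor gene Htr2c. Genes of spermatogonia and spermatocytes were nearest for 1, an Lx4A peak with a fold of 12.0 at 431 kb from Dazl. None of the genes listed for spermatid chromatin, the sperm tail and acrosome, Leydig and Sertoli cells or X-linked cancer-testis genes was nearest to an Lx peak, and 0 of 717 allows a share of up to 0.533% (Wilson). All peaks together had 0.0642%, 0.269%, 0.0825% and 0.394% near these 4 lists, all below that limit. The lists are short and leave out genes of the same kinds, among them Spaca5, with 12 Lx peaks of 89, and the cancer/testis antigen gene Ctag2 on the X chromosome, with 2 of 51, so the counts of 0 hold for the listed genes alone.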

How the data were processed

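HILS1 ChIP sequencing libraries (2 replicates) and 1 input library were made from cells reported as elongating and condensing spermatids, whereas the study's ChIP methods describe testis nuclei. Per the study's methods, reads were trimmed by the authors, placed on rn5 with Bowtie2 where they aligned to a single position, and freed of PCR duplicates. MACS was then run on either replicate with the input as control. Peaks of both replicates were intersected with bedtools, kept at 100 to 4000 bp and annotated with HOMER. The submitters' processing notes also name FastQC, SAMtools and Trim Galore. Reads that matched several copies of a repeat equally well were not placed, so near-identical copies can be counted less than diverged ones, and what this contributed to the Lx values was not tested.

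The deposited fold is a linear ratio of ChIP over the background of the caller, and every value was a whole multiple of 0.926 (within 0.011). A single step for all regions points to a shared divisor, so the fold seems to carry no correction for input at each region. The deposited score rises as the p-value of the called peak falls, and the false discovery rate was deposited in percent. From which replicate these values came is not given in the sources used here, and read totals were not used here, so the depth behind each value is unknown.

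Peaks were grouped by repeat subclass, counted in windows of 1 Mb by midpoint (dense at 50 or more peaks) and measured edge to edge to the nearest peak, with 6000 bp as near. Shares have Wilson intervals and medians order-statistic intervals, and no test was run. A gene counted as nearest where HOMER named it, and the gene of an intron was taken from the list's transcripts or, for 6 peaks, from RefSeq. The peaks and lists were chosen with earlier results of these data known. Named were the 10 Lx peaks with the highest fold, the highest and lowest of each subclass with at least 10 peaks, the longest, the shortest, the 5 closest to a start site, members of called peaks with at least 3 other segments, genes with at least 3 intronic Lx peaks, the 10 nearest genes with the most Lx peaks, and up to 5 genes of each of 12 lists. Peaks named from sparse windows, windows beyond the first 3, the genes of strong intronic pairs, Nrxn3, Spaca5, Ctag2 and the repeated order of repeats were chosen after their values were seen.

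Alternatives filtered peaks by score (at least 100), fold, false discovery rate or length (at least 500 bp), merged peaks, moved the limits for near and dense, or left out the X chromosome, the commonest score, dense windows or the subclass Lx. Scripts were checked on simulated data. Python 3.11.15 was used with numpy 2.4.6, pandas 2.3.3, scipy 1.17.1 and matplotlib 3.10.9. Sequence of the copies was not used here, and values at a few genes that the naming rule covers are not reported here.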

Additional observations from a re-analysis of the deposited data

How the results depend on the processing

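The list pools both replicates, so leaving out a replicate gave no value. No paired analysis was possible because the list has no value per replicate. Of 78 values under other settings, 46 stayed within the interval of the main value, 30 moved outside it and 2 changed sign. The intervals of the new values did not enter this count. The log10 length difference at a length of at least 500 bp counted as within, at -0.0178, although its own interval (-0.0418 to 0.0079) included 0. The share of Lx among all peaks was 2.45% with the longest segment of each called peak, 1.96% at a score of at least 100, 1.52% at a fold of at least 16, 1.74% where the false discovery rate was within 10%, 3.05% with near peaks of a group counted once, 1.10% without dense windows and 1.73% without the subclass Lx. At a score of at least 100 the median log2 fold was 4.28, the difference to other LINE-1 -0.52, the median length 803 bp and the log10 length difference -0.003. At a fold of at least 16 these were 4.53, -0.31, 895 bp and 0.0281, and where the false discovery rate was within 10% they were 4.41, -0.38, 886 bp and 0.0211, the last value in each being reversed in sign. These filters act on the fold or on values of the same call. The median length was 788 bp at a length of at least 500 bp. Without dense windows it was 670 bp, the log10 length difference -0.0732, the intronic share 13.1% and the share with a peak within 6000 bp 64.6%. That last share was 75.4% with the longest segment of each called peak, 76.5% at a fold of at least 16, 57.2% within 1000 bp and 86.2% within 10000 bp. The share in dense windows was 73.5% for windows of at least 30 peaks and 27.6% for at least 100. Chosen after seeing the data were the comparison only in dense windows, with differences of -0.21 in log2 fold and -0.0096 in log10 length, and windows counted without Lx peaks. In each of the 10 settings for which the difference in median fold to other LINE-1 was computed it stayed below 0, and the sign of the length difference did not hold. No depth was available, so the values rest on the authors' calls.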

Other observations

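The small subclass Lx8b had 3 segments of 1 called peak on chromosome 1 near Tmc3, all with a fold of 25.9. Of the 11 Lx5b peaks, the 4 in dense windows had folds between 11.1 and 13.0, and the 7 elsewhere had folds between 22.2 and 47.2. This split was noticed in the values and has no test. Across the 15 subclasses with at least 10 peaks, 10 had a lower median fold in dense windows than elsewhere and 5 a higher one.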
